A study of Homo sapiens with 12 samples.

Results

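Tubulin mRNAs encode the building blocks of microtubules, and 10 of them were followed here in cells whose transcription had been blocked. They were taken by symbol from the deposited table of raw counts: the α-tubulin genes TUBA1A, TUBA1B and TUBA1C, the β-tubulin genes TUBB, TUBB2A, TUBB2B, TUBB3, TUBB4B and TUBB6, and the γ-tubulin gene TUBG1. All 10 were among the 26334 symbols of the table, and all 10 were among the 12032 genes that entered the tests, for which the mean count was 10 or more. The cells belonged to an Ewing sarcoma line that the labels call shA673-1c, grown in medium with blasticidin and zeocin, and they received 5 µM actinomycin D for 0, 1, 2 or 4 h. Each time had 3 libraries of poly(A) RNA, so that the series held 12 libraries, and the 0 h group served as the control for the other 3. The labels do not say what the cells were engineered to carry, whether the line is 1 clone, or what the letters CTL in the column names stand for. All groups shared the line and the culture medium, and the question was how fast each transcript was lost.

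Microtubules are polymers of α- and β-tubulin heterodimers, and each of these proteins is made from several genes whose products are called isotypes. γ-tubulin does not enter the microtubule wall but sits in a ring-shaped complex that starts new microtubules. Cells also control tubulin mRNA by autoregulation: when free tubulin dimers are abundant, the adaptor TTC5 reads the first residues of nascent α- and β-tubulin as they leave the ribosome, and through SCAPER it recruits the CCR4-NOT deadenylase, which leads to decay of the mRNA being translated. Actinomycin D binds DNA and stops RNA polymerases, so that transcripts are lost at their decay rate without being replaced.

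The start of the coding sequence is shown first because the autoregulatory signal is read from the residues it encodes. The first 30 coding bases are given 5′ to 3′ with the first 4 codons in capitals, from the GENCODE version 44 transcripts on GRCh38.
TUBA1A: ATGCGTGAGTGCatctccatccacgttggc
TUBB: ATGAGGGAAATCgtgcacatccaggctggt
TUBB2A: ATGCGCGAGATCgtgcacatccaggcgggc
TUBB3: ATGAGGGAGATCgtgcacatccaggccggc
TUBB4B: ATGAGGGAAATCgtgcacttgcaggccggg
TUBB6: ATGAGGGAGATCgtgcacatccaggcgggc
TUBG1: ATGCCGAGGGAAatcatcaccctacagttg
TUBA1B and TUBA1C were identical to TUBA1A over these bases. The β-tubulin genes opened with codons for methionine, arginine, glutamate and isoleucine, and the α-tubulin genes had cysteine in place of the isoleucine. Among 19580 canonical coding transcripts with an annotated start codon, 10 opened with the first set of codons, all of them β-tubulin genes, and 9 opened with the second, all of them α-tubulin genes. TUBG1 had neither start.

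The ends of the coding sequences are where isotypes differ most, and they are shown for TUBB and for TUBB3 and TUBB4B, which had the steepest slope and the slope nearest 0. The last 30 coding bases are given 5′ to 3′ with the stop codon in capitals.
TUBB: ttcggtgaggaggccgaagaggaggccTAA
TUBB3: gaggagtcggaggcccagggccccaagTGA
TUBB4B: gaggaggaggctgaggaggaggtggccTAG

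Several of these genes are near-identical, which limits how far reads can be assigned to one of them. Coding identity was 98.2% between TUBB2A and TUBB2B, 97.2% between TUBA1A and TUBA1B, and 96.8% between TUBA1B and TUBA1C. Of all windows of 75 bases in the canonical transcript, 56.0% of those of TUBB2A, 46.8% of TUBB2B, 42.2% of TUBA1B, 31.2% of TUBA1A and 18.1% of TUBA1C were also found in another of the 10. TUBB and TUBB6 shared no window with another of the 10, while 92.6% of the windows of TUBB3 were also in an annotated readthrough transcript, ENSG00000198211, that runs through it. How the counting treated such reads is not given in the sources used here, so values of the TUBA1 genes, of TUBB2A and TUBB2B, and of TUBB3 are uncertain to that extent. TUBG1 shared 20.4% of its windows with TUBG2, and TUBB 8.97% with any other transcript, its pseudogenes TUBBP1 and TUBBP2 among them. TUBB4B shared 5.64% with any other transcript, TUBB2A and TUBB2B among them. The same thus holds for TUBG1, TUBB and TUBB4B in smaller measure.

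The genes lie on several chromosomes (GRCh38, GENCODE version 44; the submitters' processing notes name hg19 for the counts, which carry symbols only). TUBB, on chromosome 6 from 30717435 to 30725538 on the plus strand, had 4 exons and lay in opposite orientation to the overlapping gene MDC1. TUBB2A and TUBB2B also lie on chromosome 6, from 3153497 to 3157544 and from 3223324 to 3231730 on the minus strand. TUBA1B, TUBA1A and TUBA1C lie on chromosome 12, from 49127782 to 49131397, from 49184686 to 49189080 and from 49188736 to 49274600, and TUBA1A overlaps TUBA1C on the other strand. TUBB3 spans 89921392 to 89938761 on chromosome 16, TUBB4B 137241287 to 137243707 on chromosome 9, TUBB6 12307669 to 12344320 on chromosome 18, and TUBG1, with 11 exons, 42609641 to 42615238 on chromosome 17. The kit marks strand, but the strand setting of the counting is not given in the sources used here, so reads from overlapping genes on opposite strands may not be told apart.

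Library totals ranged from 9147018 to 11194705 counts, and the 10 tubulin mRNAs together took 0.798% ± 0.0199 (SD, n = 3) of all counts at 0 h and 0.904% ± 0.0329 at 4 h. Depth was high for the major isotypes, with a mean of 37560 counts per library for TUBB and 20580 for TUBA1B. It was lower for TUBG1, TUBB2B and TUBB2A, with means of 621, 409 and 349 counts. The short-lived transcripts MYC and JUN, which check the time labels, had slopes of -1.12 and -0.89 log2 per hour. Of 8 Ewing sarcoma markers, 7 were tested and CD99 was listed at 0 in all libraries. Their summed level was 1900 to 2040 CPM (counts per 1000000 counts, TMM-scaled) at 0 h and 2060 to 2290 at 4 h, most of it from CCND1, which rose (slope 0.0634), while NKX2-2, NR0B1, FLI1 and PAX7 fell (slopes -0.648, -0.526, -0.499 and -0.236, edgeR, adjusted p below 0.05). Under scaling to GAPDH and ACTB all 7 fell, where 64.2% of all tested genes did. Of 10 markers of other cell types, COL1A1, a collagen gene of mesenchymal cells, alone was abundant (2860 CPM at 0 h), and rose with a slope of 0.177 (adjusted p = 9.07e-07, edgeR), against 0.04 under scaling to GAPDH and ACTB (adjusted p = 0.098). The other 9 summed to 1.38 to 2.41 CPM at 0 h and 2.8 to 3.29 at 4 h, with CD3E, ALB and MYOD1 at 0.

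Before actinomycin D the cells held mainly the ubiquitous isotypes. Levels can be compared between genes only per length, here as TMM-scaled CPM per kilobase of the canonical transcript. The order thus rests on that length and on how shared reads were counted, whatever the spread of the libraries. In CPM alone TUBA1C stood above TUBA1A at 0 h (567.8 against 419.2), with canonical transcripts of 2823 and 1672 bases. TUBB stood highest at 0 h, at 1351 ± 60.4 (SD, n = 3), followed by TUBA1B at 1120 ± 45.9 and TUBB4B at 433.5 ± 16.8. TUBB3 and TUBA1A came next, at 276 ± 26.7 and 251 ± 19.4, and their libraries overlapped. TUBA1C, at 201 ± 13.8, and TUBB6, at 111 ± 7.69, lay below them without overlap. TUBG1 was at 34.6 ± 1.19. TUBB2A and TUBB2B were lowest, at 20.8 ± 2.96 and 19.3 ± 1.9, and could not be ordered. TUBB3, a marker of neurons, was thus one of the more abundant isotypes, while the 6 neuronal markers summed to 15.1 to 19.4 CPM at 0 h, with MAP2 at 1 to 6 counts and ELAVL4 at 0 to 4.

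After actinomycin D most tubulin mRNAs rose relative to the TMM scaling, which sets each library against the bulk of its poly(A) RNA, while under scaling to GAPDH and ACTB none did. A line over the 4 times gave each gene a slope in log2 change per hour. Of the 10 tubulin mRNAs, 7 rose at an adjusted p below 0.05 in edgeR's quasi-likelihood test (TUBA1A, TUBA1B, TUBA1C, TUBB, TUBB3, TUBB6 and TUBG1), where 30.7% of all tested genes rose, whereas under scaling to GAPDH and ACTB none rose, where 0.931% of all tested genes did, and all 10 slopes were negative. GAPDH and ACTB themselves had TMM-scaled slopes of 0.152 and 0.122. None fell by edgeR, by an unadjusted p below 0.05 (0 genes) or by DESeq2 (0 genes), where 32.1% of all tested genes fell. TUBB2A, TUBB2B and TUBB4B were not past the threshold in either direction. With the replicate number as a block TUBB2B passed as well (slope 0.0618, adjusted p = 0.00294, edgeR), which made 8, where 36.2% of all tested genes rose. The median slope of the 10 was 0.0775, beside 0.00929 over all tested genes. Without replicate 1, TUBA1C was no longer past the threshold (adjusted p = 0.0853, edgeR), and without replicate 2 the same held for TUBB6 (adjusted p = 0.0597, edgeR).

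**Figure D1:**
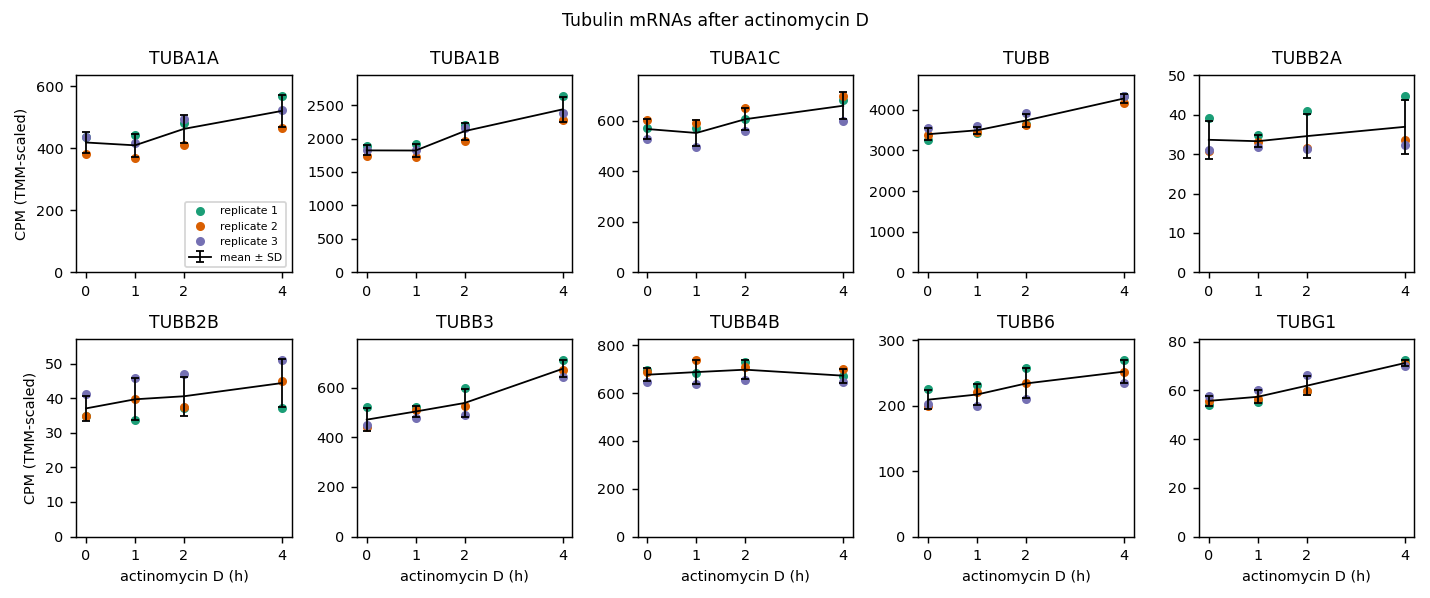
TMM-scaled CPM of each tubulin mRNA (y axis, from 0) against hours of actinomycin D (x axis). Points are single libraries, coloured by replicate number, and the line with bars is the mean ± SD of 3 libraries. TUBB4B stays between 640 and 739 CPM, while TUBB, TUBA1B and TUBB3 have every 4 h library above every 0 h library on this scale, a direction that turns under scaling to GAPDH and ACTB.

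These directions depend on what each library is scaled to, since no spike-in was available and a transcript that is lost more slowly than the average rises in relative terms. In bulk RNA, fewer cells and less RNA per cell cannot be told apart either. Scaling to GAPDH and ACTB moved the median slope of all genes from 0.00929 to -0.128 and the median log2 difference of 4 h against 0 h from 0.0281 to -0.52. Under it 5 of the 10 tubulin mRNAs fell (TUBA1C, TUBB, TUBB2A, TUBB4B and TUBB6), where 64.2% of all tested genes fell, and the difference in share was not tested. The half-lives of these 5 on this scale, -1 divided by the slope, were 13.2, 19.0, 9.7, 7.12 and 14.5 h. They hold only if GAPDH and ACTB mRNA are themselves not lost, and all reach past the 4 h course. TUBB was not called at 4 h against 0 h under this scaling (adjusted p = 0.0587, edgeR). Under plain library totals 4 rose (TUBA1B, TUBB, TUBB3 and TUBG1) and TUBB4B fell, with a slope of -0.0421 (adjusted p = 0.0132, edgeR). Of all tested genes 18.7% rose and 39.1% fell under library totals. A change of scaling shifts all slopes nearly alike by construction, so only the place relative to the median gene is given free of it, as a description: TUBB3 lay 0.121 to 0.122 log2 per hour above it, TUBA1B 0.103 to 0.104, TUBB 0.0753 to 0.0766, and TUBB4B 0.0122 to 0.0125 below it. The other 9 lay above the median gene.

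**Figure D2:**
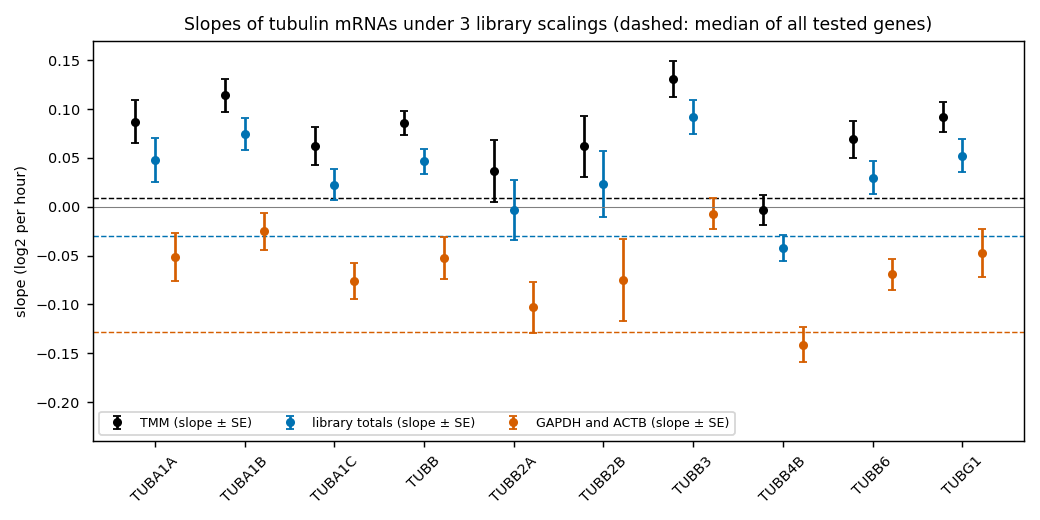
Slope of each tubulin mRNA in log2 per hour (y axis, points with ± 1 standard error) under TMM scaling, library totals, and scaling to GAPDH and ACTB. Dashed lines are the medians of all tested genes in the same colours. The sign of most slopes changes with the scaling, while the distance to the dashed line of the same colour is nearly fixed by construction, with TUBB4B below it and the other 9 genes above.

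Among the α-tubulin mRNAs, TUBA1B, the main ubiquitous isotype, had 1895, 1745 and 1829 CPM at 0 h (replicates 1, 2 and 3), 1914, 1719 and 1829 at 1 h, 2206, 1968 and 2158 at 2 h, and 2640, 2282 and 2387 at 4 h. The 0 h and 1 h libraries overlapped, and every 4 h library lay above every library of 0, 1 and 2 h. The 4 h level was 1.34 times that of 0 h (95% interval 1.21 to 1.47), and the slope was 0.114 (standard error 0.0167, adjusted p = 1.83e-05, edgeR), although it was -0.0252 under scaling to GAPDH and ACTB. TUBA1A, an isotype abundant in the developing brain, had 438, 382 and 438 CPM at 0 h and 570.2, 468 and 526 at 4 h. Its 4 h libraries all lay above those of 0 h, and its slope was 0.0872 (standard error 0.0218, adjusted p = 0.00227, edgeR). TUBA1C, a further ubiquitous α isotype, had 571, 605 and 527 CPM at 0 h and 682, 699.8 and 599 at 4 h. Its groups overlapped, with replicate 3 the lowest at both times, and within each replicate the 4 h library was the higher. Its slope was 0.062 (standard error 0.0195, adjusted p = 0.011, edgeR), was not past the threshold without replicate 1 (adjusted p = 0.0853, edgeR), and like that of TUBA1A was negative under scaling to GAPDH and ACTB.

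Among the β-tubulin mRNAs, TUBB, which encodes the main β isotype of dividing cells, had 3261, 3369 and 3561 CPM at 0 h, 3430, 3450 and 3600 at 1 h, 3642, 3635 and 3927 at 2 h, and 4331, 4152 and 4343 at 4 h. The 4 h libraries lay above all others. Its 4 h level was 1.26 times that of 0 h (95% interval 1.17 to 1.36), and the fitted slope was 0.0857 (standard error 0.0123, adjusted p = 1.48e-05, edgeR) but -0.0527 under scaling to GAPDH and ACTB. TUBB3, the β isotype typical of neurons, had 523, 440 and 449 CPM at 0 h, 523, 509 and 479 at 1 h, 599.7, 524 and 489 at 2 h, and 711, 672 and 643 at 4 h. All its 4 h libraries lay above all earlier ones. It had the steepest slope of the 10, at 0.131 (standard error 0.0187, adjusted p = 1.31e-05, edgeR), and rank 1448 from the top among all tested genes, while under scaling to GAPDH and ACTB its slope was -0.00693 (adjusted p = 0.728, edgeR). TUBB6, a minor β isotype, had 226, 199 and 203 CPM at 0 h and 270.1, 252 and 235 at 4 h. Its groups did not overlap, and its slope of 0.0692 (standard error 0.0188, adjusted p = 0.00418, edgeR) did not pass when replicate 2 was left out (adjusted p = 0.0597) and was -0.0691 under scaling to GAPDH and ACTB.

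The neuronal markers, which bear on TUBB3, stayed low throughout. Their summed level was 15.1 to 19.4 CPM at 0 h and 18.9 to 25.4 at 4 h. Of the 6, 4 were tested and NEFL, a neurofilament subunit, was past the threshold (slope 0.118, adjusted p = 0.0319, edgeR), though not without replicate 1 (adjusted p = 0.0725) or replicate 2 (adjusted p = 0.172) and not under scaling to GAPDH and ACTB (adjusted p = 0.757). The part of these transcripts in the values of TUBB3 was not tested.

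TUBB4B, second in level among the β isotypes at 0 h and found in cilia as well as in the cytoplasm, had the slope nearest 0 under TMM scaling. It had 696, 689.6 and 647 CPM at 0 h, 687, 739 and 639.5 at 1 h, 732, 710.5 and 653 at 2 h, and 672.8, 702 and 645 at 4 h. The 4 groups overlapped throughout, and 1 of 3 replicates was higher at 4 h than at 0 h. The slope was -0.00296 with a 95% interval of -0.035 to 0.0291 (adjusted p = 0.876, edgeR), and the 4 h level was 0.994 times that of 0 h (95% interval 0.903 to 1.09). The slope was -0.141 under scaling to GAPDH and ACTB (adjusted p = 1.1e-06, edgeR).

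TUBB2A and TUBB2B, whose products are abundant in neurons, were scarce. TUBB2A had 39.2, 30.8 and 31.0 CPM at 0 h and 44.9, 33.5 and 32.5 at 4 h, with replicate 1 above the others at each time. TUBB2B had 35.0, 34.9 and 41.2 CPM at 0 h and 37.2, 44.9 and 51.0 at 4 h, with replicate 3 the highest at each time. Both groups of libraries overlapped. Slopes were 0.0364 for TUBB2A (95% interval -0.0306 to 0.104, adjusted p = 0.329, edgeR) and 0.0621 for TUBB2B (95% interval -0.00366 to 0.128, adjusted p = 0.0925, edgeR). TUBB2B was higher at 4 h in 3 of 3 replicates and passed with the replicate block (adjusted p = 0.00294, edgeR).

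TUBG1, which encodes γ-tubulin, had 53.8, 55.7 and 57.7 CPM at 0 h, 55.4, 56.4 and 60.4 at 1 h, 59.7, 59.7 and 66.4 at 2 h, and 72.5, 71.0 and 70.2 at 4 h. The 4 h libraries lay above all others. Its 4 h level was 1.28 times that of 0 h (95% interval 1.16 to 1.41), and its slope was 0.0917 (standard error 0.0155, adjusted p = 7.51e-05, edgeR), against -0.0469 under scaling to GAPDH and ACTB.

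Contrasts between single times, with time as 4 groups in 1 edgeR fit, showed when the differences arose. Between 0 and 4 h the same 7 genes were higher and none was lower, where 28.7% and 31.6% of all tested genes were called. TUBB2B was higher as well with the replicate block (log2 difference 0.262, adjusted p = 0.000855, edgeR). That made 8, where 36.8% of all tested genes were higher. Every 4 h library lay above every 0 h library for 6 of the 10 (all of the 7 but TUBA1C), as for 30.4% of all tested genes. From 0 to 1 h no tubulin mRNA was called by edgeR, by an unadjusted p below 0.05 (0 genes) or by DESeq2 (0 genes), while 0.349% of all genes were higher and 2.24% lower. With the replicate block TUBB3 was called in this hour, with a log2 difference of 0.0999 (adjusted p = 0.0448, edgeR), where 6.18% of all genes were higher. From 1 to 2 h TUBA1B alone was higher (log2 difference 0.213, adjusted p = 0.0416, edgeR), where 3.76% of all genes were higher and 12.5% lower. It was not called in this interval without replicate 1, 2 or 3, and with the replicate block 6 of the 10 were higher, where 17.0% of all genes were. From 2 to 4 h TUBA1B, TUBB, TUBB3 and TUBG1 were higher, with log2 differences of 0.207, 0.195, 0.328 and 0.201, where 12% of all genes were higher and 18.3% lower. With the replicate block 7 were higher here, where 25.3% of all genes were, while 1 was called without replicate 1 and none without replicate 2. Under scaling to GAPDH and ACTB, 4 genes were lower and none higher at 4 h than at 0 h, where 63.3% and 0.923% of all tested genes were. From 1 to 2 h the difference of TUBA1B was then 0.0854 (adjusted p = 0.635, edgeR), and from 2 to 4 h those of TUBA1B, TUBB and TUBG1 were negative and that of TUBB3 was 0.0261 (adjusted p = 0.803, edgeR).

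Whether a straight line describes a gene was asked by the rate after 1 h minus the rate before it. No tubulin mRNA differed by edgeR, by an unadjusted p below 0.05 (0 genes) or by DESeq2 (0 genes), and 0.0416% of all tested genes had a higher and 0.133% a lower later rate. With the replicate block the 3 α-tubulin mRNAs had a higher rate after 1 h than before it, by 0.148 log2 per hour for TUBA1A (adjusted p = 0.0104, edgeR), 0.142 for TUBA1B (adjusted p = 0.00209, edgeR) and 0.128 for TUBA1C (adjusted p = 0.0135, edgeR), where 5.39% of all genes had one. The same difference was 0.0567 for TUBB (adjusted p = 0.209, edgeR) and 0.0411 for TUBB3 (adjusted p = 0.584, edgeR).

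Ratios of 2 tubulin mRNAs within a library do not depend on how the library is scaled. The slopes of 9 log2 ratios of counts were tested over the 12 libraries with a two-sided exact permutation test (369600 arrangements) and adjusted over the 9 pairs by the Benjamini-Hochberg method. TUBB4B to TUBB was past the threshold, with a slope of -0.0888 log2 per hour (exact permutation p = 0.00427, adjusted p = 0.0385). The pairs were chosen with earlier results of these data known, and the adjustment over 9 pairs does not cover that choice. The log2 ratio was -2.23, -2.29 and -2.46 at 0 h and -2.69, -2.56 and -2.75 at 4 h. These libraries did not overlap, and the ratio was lower at 4 h in 3 of 3 replicates, on average by 21.1%. It did not pass when replicate 1 (slope -0.077, adjusted exact p = 0.119) or replicate 2 (slope -0.094, adjusted exact p = 0.0583) was left out, and fewer arrangements exist there. The coding sequences of the 2 genes are 84.4% identical.

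The other 8 ratios were not past the threshold over free arrangements, and 5 of them were when times were rearranged within each replicate number only (13824 arrangements). TUBB3 to TUBB then had a slope of 0.0457 (exact permutation p adjusted over 9 pairs 0.0215), with a log2 ratio of -2.86 ± 0.188 at 0 h and -2.66 ± 0.0811 at 4 h. TUBA1C to TUBA1B had -0.0513 (adjusted exact p = 0.000651) and TUBA1A to TUBA1B -0.0262 (adjusted exact p = 0.000977), so that TUBA1B gained on both other α isotypes in every replicate. TUBB to TUBA1B had -0.0275 (adjusted exact p = 0.0231) and TUBB2A to TUBB -0.0512 (adjusted exact p = 0.0215). TUBG1 to TUBB was nearly level, with a log2 ratio of -5.93 ± 0.0166 at 0 h and -5.91 ± 0.041 at 4 h and a slope of 0.00602 ± 0.00855 (mean and SD of 3 replicates). TUBB6 to TUBB and TUBB2B to TUBB2A were not past the threshold under either test. Ratios that involve the TUBA1 genes, TUBB2A, TUBB2B, TUBB3 or TUBG1 carry the limit on shared sequence given before. In smaller measure it also holds for TUBB and TUBB4B, and so for TUBB4B to TUBB.

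**Figure D3:**
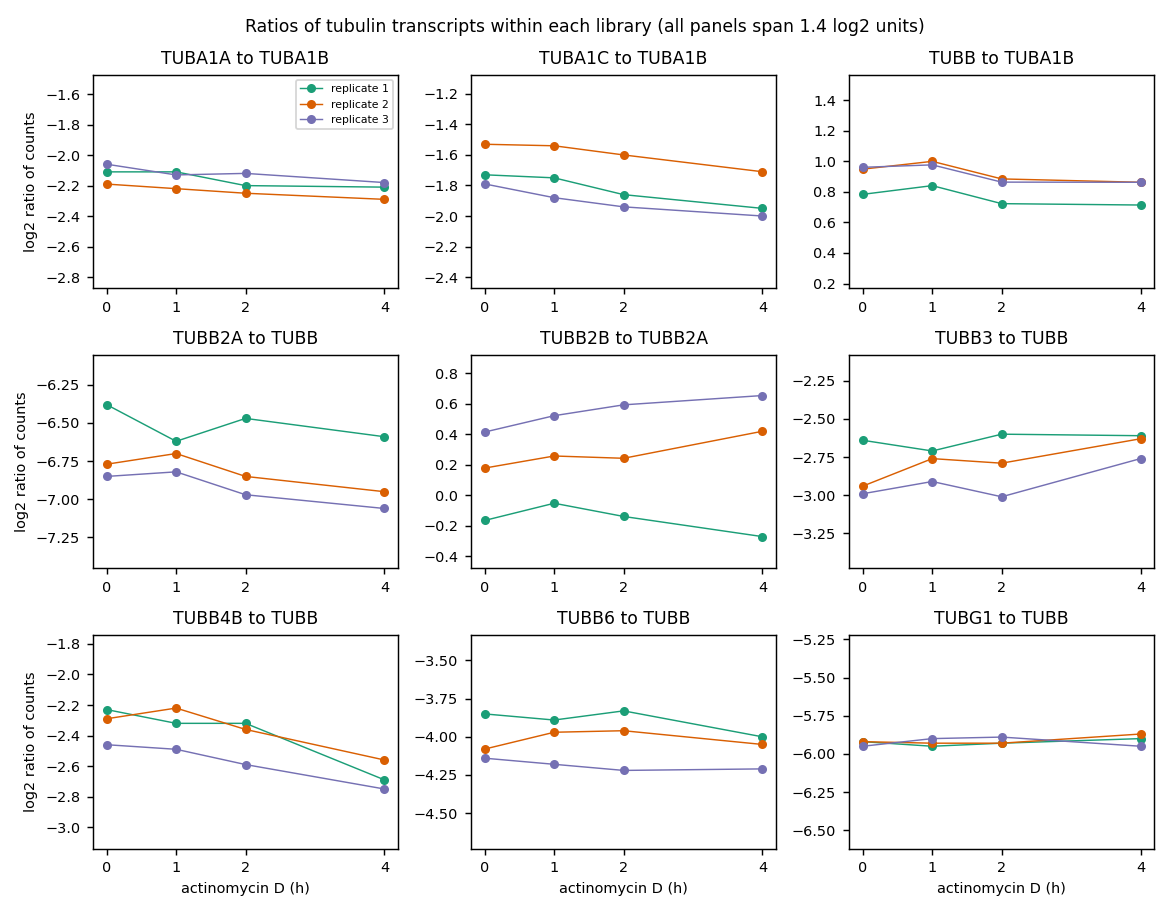
Log2 ratio of the counts of 2 tubulin mRNAs in the same library (y axis, the same span of log2 units in each panel) against hours of actinomycin D (x axis), with 1 line per replicate number. TUBB4B to TUBB falls in all 3 replicates, from between -2.46 and -2.23 to between -2.75 and -2.56, and TUBG1 to TUBB stays close to -5.9.

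The composition of the tubulin mRNA pool was described per length. As shares of the summed CPM per kilobase of the 6 β-tubulin mRNAs, TUBB made up 61.1% ± 2.28 (SD, n = 3) at 0 h and 62.8% ± 1.28 at 4 h. TUBB4B made up 19.6% ± 0.981 and 15.9% ± 0.786, with no overlap between the groups (18.5 to 20.2% against 15.4 to 16.8%). TUBB3 made up 12.5% ± 1.21 and 14.6% ± 0.553, again with no overlap (11.7 to 13.9% against 14.0 to 15.1%). Among the 3 α-tubulin mRNAs TUBA1B made up 71.3% ± 0.402 and 73.3% ± 0.531, with groups that did not overlap. Summed β-tubulin mRNA was 1.41 ± 0.044 times summed α-tubulin mRNA at 0 h and 1.33 ± 0.0685 times at 4 h, within overlapping ranges. These shares were not tested beyond the ratios given before.

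**Figure D4:**
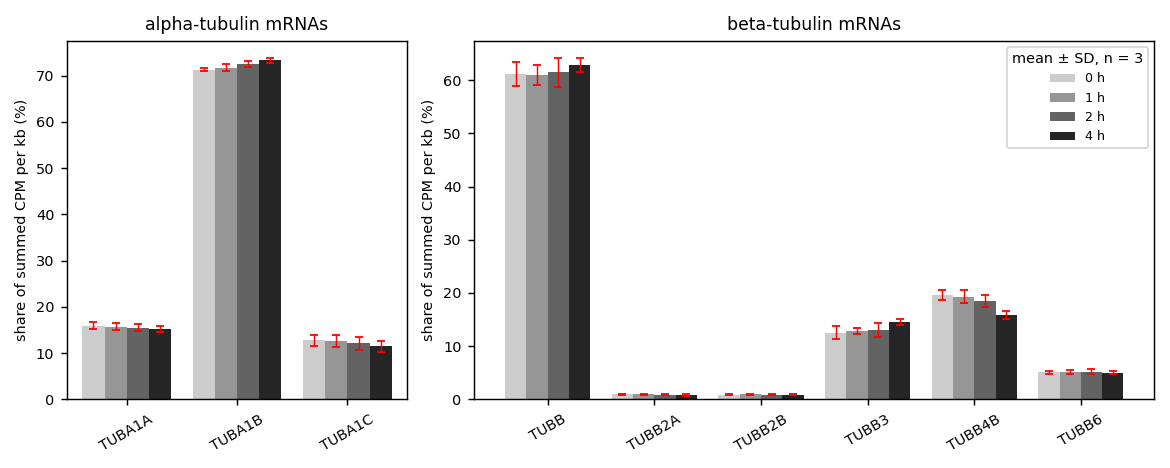
Share of each isotype in the summed CPM per kilobase of the 3 α-tubulin mRNAs (left) and the 6 β-tubulin mRNAs (right), in percent (y axis, from 0), at 0, 1, 2 and 4 h of actinomycin D. Bars are means and red lines SD of 3 libraries. TUBB4B goes from 19.6% to 15.9% and TUBB3 from 12.5% to 14.6%.

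The genes with the pattern most like that of TUBB over the 12 libraries were found by the root mean square difference of centred log2 CPM among 8855 genes whose mean count was 100 or more. The nearest gene was TUBG1, at 0.0254, followed by BECN1 (0.0285), MCM2 (0.0322), PGD (0.0326) and SNRPD3 (0.0338), beside a median of 0.188 over all genes compared. The remaining tubulin mRNAs came later, from TUBA1B at place 937 to TUBB2A at 4711 (0.198). Among the β isotypes the nearest to TUBB was TUBB6, at place 2548. For TUBA1B the nearest were ANXA6 (0.0273), AP2B1 (0.0298), PSMB6 (0.0312), PSMD2 (0.0323) and FAM96B (0.033), beside a median of 0.219. TUBA1A came at place 83 for TUBA1B, TUBB at 463 and TUBA1C at 2498. These are descriptions over libraries that share their scaling, with no test.

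Of 12 autoregulation genes, which encode TTC5, SCAPER and subunits of CCR4-NOT, 8 fell and none rose by edgeR, by an unadjusted p below 0.05 (0 genes) or by DESeq2 (0 genes), where 32.1% and 30.7% of all tested genes did, and the median slope was -0.0689, beside 0.00929 over all tested genes. With the replicate block 9 fell, where 34.8% of all tested genes did, and without replicate 1 or replicate 2 the count was 6. CNOT6L, a deadenylase subunit, had the steepest fall, from 14.0 ± 1.11 to 5.46 ± 0.895 CPM (slope -0.343, adjusted p = 5.76e-07, edgeR). This gives a half-life of 2.92 h under TMM scaling, or 2.08 h under scaling to GAPDH and ACTB. CNOT2, another CCR4-NOT subunit, had a slope of -0.28 and CNOT8, a deadenylase, one of -0.175. SCAPER had -0.0978 (adjusted p = 0.014, edgeR), which did not pass when replicate 1 was left out (adjusted p = 0.113), and TTC5 had -0.0209 (adjusted p = 0.518). Under scaling to GAPDH and ACTB all 12 fell, where 64.2% of all tested genes did.

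Of 13 tubulin folding genes, whose products bring nascent tubulin to the chaperonin and assemble the heterodimer, 8 rose and 1 fell, beside 30.7% and 32.1% of all tested genes. The gene that fell was TBCC, the cofactor that triggers release of the finished dimer, which had 23.4, 25.5 and 20.0 CPM at 0 h, 14.3, 14.5 and 13.2 at 1 h, 8.04, 5.06 and 4.16 at 2 h, and 3.90, 2.22 and 3.02 at 4 h. Each time lay below the one before it without overlap. The half-life of TBCC was 1.28 h under TMM scaling, where the slope was -0.783 (standard error 0.0644, adjusted p = 3.66e-08, edgeR), and the slope was -0.915 under scaling to GAPDH and ACTB. TBCD, ARL2 and TBCB had the steepest rises, with slopes of 0.168, 0.157 and 0.136, and under scaling to GAPDH and ACTB none of the 13 rose and 7 fell, where 64.2% of all tested genes fell. Without replicate 1 the count of rising folding genes was 6, and without replicate 3 it was 7. Under library totals 6 rose and 2 fell, where 18.7% and 39.1% of all tested genes did.

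Among the other tubulin genes 5 of 12 were counted well enough to be tested. TUBG2, the second γ-tubulin gene, which shares sequence with TUBG1, rose (slope 0.211, adjusted p = 0.000256, edgeR), as did TUBB4A (slope 0.137, adjusted p = 0.0393, edgeR), a β isotype of the brain, while TUBD1, which encodes δ-tubulin of the centriole, fell (slope -0.13, adjusted p = 0.00577, edgeR), with a half-life of 7.72 h, or 3.77 h under scaling to GAPDH and ACTB. TUBB4A lost its call when replicate 1 or 2 was left out, and TUBD1 when replicate 2 was (adjusted p = 0.181, 0.0955 and 0.0959, edgeR). With the replicate block 4 of the 5 rose, where 36.2% of all tested genes did. Under scaling to GAPDH and ACTB 2 fell and none rose, where 64.2% and 0.931% of all tested genes did. Of the 10 γ-tubulin ring complex genes, 5 rose and none fell by edgeR, by an unadjusted p below 0.05 (0 genes) or by DESeq2 (0 genes), where 30.7% and 32.1% of all tested genes did. With the replicate block 6 of these rose, where 36.2% of all tested genes did. The ring subunits TUBGCP6, TUBGCP2 and TUBGCP4 had slopes of 0.232, 0.118 and 0.0863, and the small subunits MZT2B and MZT2A had 0.256 and 0.198, with MZT2A not past the threshold without replicate 2 (adjusted p = 0.0617, edgeR), and under scaling to GAPDH and ACTB 2 rose and 4 fell, where 0.931% and 64.2% of all tested genes did. MZT2A and MZT2B are near-identical paralogs, so their separate values are uncertain.

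Of 15 tested tubulin modification genes, 8 rose and 2 fell, where 30.7% and 32.1% of all tested genes did. With the replicate block 9 rose, where 36.2% of all tested genes did, and under library totals 4 rose, where 18.7% did. Without replicate 1 or replicate 2 the count of rising genes was 5. TTLL11 and TTLL4, 2 polyglutamylases, fell with slopes of -0.305 and -0.251 (half-lives 3.28 and 3.98 h, or 2.27 and 2.55 h under scaling to GAPDH and ACTB). VASH2, a vasohibin that removes the last tyrosine of α-tubulin, SIRT2 and HDAC6, both tubulin deacetylases, had slopes of 0.177, 0.16 and 0.145, and VASH2 lost its call when replicate 1 (adjusted p = 0.258, edgeR) or replicate 2 (adjusted p = 0.0791, edgeR) was left out. Of 20 microtubule-associated and severing proteins, 7 rose and 7 fell, shares near the 30.7% and 32.1% of all tested genes. With the replicate block 8 fell, where 34.8% of all tested genes did. MAP1S, a microtubule-binding protein, FIGNL1, a relative of the severing enzyme fidgetin, and the katanin subunit KATNA1 had slopes of -0.392, -0.283 and -0.211, and STMN3, a stathmin that binds free dimers, and the end-binding protein MAPRE3 had 0.167 and 0.119. MAPRE3 lost its call when replicate 1 (adjusted p = 0.118, edgeR) or replicate 3 (adjusted p = 0.0516, edgeR) was left out. Under scaling to GAPDH and ACTB no gene of either list rose, and 7 and 14 fell, where 64.2% of all tested genes did.

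**Figure D5:**
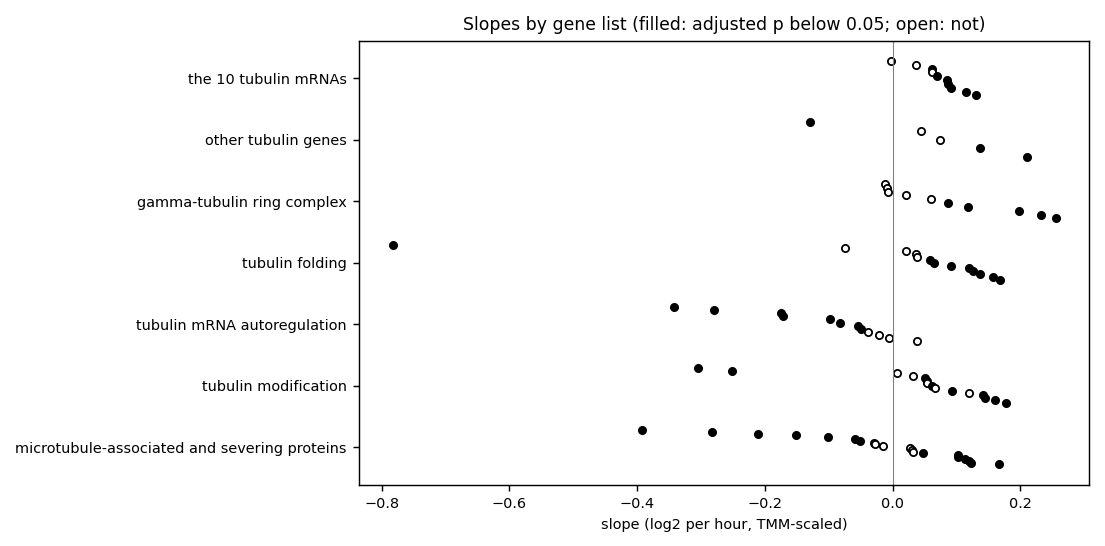
Slope in log2 per hour under TMM scaling (x axis) of the 10 tubulin mRNAs and of the tested genes of 6 lists (y axis). Each circle is 1 gene, filled where the adjusted p of edgeR's test was below 0.05, and circles are spread vertically to be seen. The tubulin mRNAs lie between -0.00296 and 0.131, the autoregulation genes mostly to the left of 0 and the folding genes mostly to the right apart from TBCC, and scaling to GAPDH and ACTB moves all circles to the left by a like amount.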

How the data were processed

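RNA was measured in 12 libraries (4 times, 3 replicates each, labelled as biological replicates). Nothing else says that these came from separate cultures, so p-values may measure technical spread. The deposited values are raw counts, listed by the authors under gene symbols. The submitters' processing notes name FastQC, STAR and hg19. The study's general methods for this kit name Prinseq, STAR against rRNA, Salmon and tximport, without naming these libraries. The counter and its treatment of multiply mapped reads are not given in the sources used here. Columns were matched by sample title (0 unmatched).

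All tests across genes used edgeR 4.0.16 under R 4.3.3 (TMM factors 0.924 to 1.05, mean count of 10 or more, glmQLFit and glmQLFTest, Benjamini-Hochberg over 12032 genes). Times were fitted as a number or as 4 groups over all 12 libraries. Half-lives are -1 over the slope, in hours, and hold only if what the libraries are scaled to is itself not lost. Totals of 9147018 to 11194705 counts and a biological coefficient of variation of 0.0905 set the precision. Replicate pairs differed by more than sampling noise (chi-square per degree of freedom 3.07 to 8.15). Ratios were tested with numpy 2.4.6 and scipy 1.17.1.

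Libraries with the same replicate number deviated together (correlations 0.347 to 0.657 over 18 pairs, at most 0.0953 over 36 pairs of different number). The numbers, taken from the labels, may thus pair the libraries. The main tests used no replicate block and, for ratios, free arrangements, so they leave this pairing out. The blocked value stands beside a result where it changed the call. On simulated data for the slope test over 11989 genes, 39.7% of 58 genes with a slope of 0.1, 95.3% of 43 at 0.25 and 100% of 45 at 0.5 were recovered, and unchanged genes made up 6.86% of the calls. The simulation had 200 changed genes, the same spread for every gene and no replicate effect, unlike the data. It therefore does not give the sensitivity of the real test for the tubulin mRNAs.

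The tubulin genes, the gene lists and the pairs were chosen with earlier results of these data known. Named genes are the 10 tubulin mRNAs, GAPDH, ACTB, MYC, JUN, TTC5, SCAPER, the 3 steepest falls and 3 steepest rises of each list among genes past the threshold (all where a list has 5 or fewer), and the 5 genes nearest to TUBB and TUBA1B. CNOT9 was matched as RQCD1. Alternatives were library totals, DESeq2 size factors, scaling to GAPDH and ACTB, the Wald test of DESeq2 1.42.0, stricter and looser count filters, the replicate block, other times, leaving out each replicate and, for ratios, a pseudocount of 0.5. Protein sequences were not used here. A gene that the rule names and some sequences are not reported here.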

Additional observations from a re-analysis of the deposited data

How the results depend on the processing

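Without a spike-in, directions are relative to the scaling. In simulated data with 200 changed genes a slope of 0.1 was recovered for 39.7% of the genes given it, which is not the sensitivity of the real test. Of 120 alternatives for the slopes of the 10 genes, 95 kept direction and side of the threshold, as did 51 of 63 for the ratios. Of 84 alternatives for the counts of called genes, 61 gave a count within 1.5 times the main one. The cause of the others was not tested.

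Under scaling to GAPDH and ACTB the slopes were -0.0516 for TUBA1A, -0.0252 for TUBA1B, -0.0759 for TUBA1C, -0.0527 for TUBB, -0.103 for TUBB2A, -0.0747 for TUBB2B, -0.00693 for TUBB3, -0.0691 for TUBB6 and -0.0469 for TUBG1. With it 5 fell and 0 rose, 4 were lower and 0 higher at 4 h than at 0 h, 0 were called from 1 to 2 h and 2 from 2 to 4 h. Of all tested genes 64.2% then fell, and 63.3% were lower at 4 h than at 0 h. Under library totals the slope of TUBB2A was -0.00297, 1 gene fell and 4 rose, 1 was lower and 4 higher at 4 h than at 0 h, 0 were called from 1 to 2 h and 1 from 2 to 4 h. Of all tested genes 39.1% fell and 18.7% rose under library totals, and 38.4% were lower and 17.6% higher at 4 h than at 0 h. With a mean of at least 100 counts, 0 were called from 1 to 2 h. With 0, 1 and 2 h only, 2 rose, the slope of TUBB4B was 0.0328, that of log2 TUBB6 to TUBB was 0.0112, and that of TUBB4B to TUBB was -0.0468 (not past the threshold). With 1, 2 and 4 h only it was -0.11 (not past the threshold).

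With the replicate block the calls were 8 at 4 h against 0 h, 1 from 0 to 1 h, 6 from 1 to 2 h, 7 from 2 to 4 h and 3 for the rate after 1 h minus the rate before. Blocked arrangements brought past the threshold the slopes of log2 TUBA1A to TUBA1B (-0.0262), TUBA1C to TUBA1B (-0.0513), TUBB to TUBA1B (-0.0275), TUBB2A to TUBB (-0.0512) and TUBB3 to TUBB (0.0457). The block also brought TUBB2B past the threshold and changed no other call among the slopes of the 10 genes. Without 1 replicate in turn, 6 to 7 rose, 5 to 7 were higher at 4 h than at 0 h (TUBA1A and TUBA1C lost without replicate 1, TUBA1C and TUBB6 without replicate 2), 0 were called from 1 to 2 h in each and 0 to 3 from 2 to 4 h. The slope of TUBB4B to TUBB ranged from -0.0953 to -0.077. That of TUBA1A to TUBA1B ranged from -0.0273 to -0.0254 and that of TUBA1C to TUBA1B from -0.0537 to -0.0474, both past the threshold without replicate 2.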
